A study of Macaca mulatta with 12 samples.

Results

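The genes described here encode the subunits of the hypoxia-inducible factor (HIF) and the enzymes that couple it to oxygen. They were chosen by symbol from the deposited expression table: EGLN1, EGLN2, EGLN3, HIF1AN, HIF1A, EPAS1, ARNT and VHL. Of these 8 genes, 7 are listed among the 16745 in the table, and EGLN2 was not analysed here. The samples are labelled as cardiomyocytes derived from induced pluripotent stem cells of the rhesus macaque, Macaca mulatta, all grown in RPMI medium with B27 supplement containing insulin. The groups are monolayer culture in normoxia, monolayer culture in hypoxia, engineered heart tissue (EHT, a culture cast in 3 dimensions) in normoxia and EHT in hypoxia, with 3 libraries each and 12 in all. Hypoxia was produced in anaerobic pouches for 24 hours, followed by 24 hours after fresh medium, and the labels do not say at which point RNA was taken. Oxygen and the change of medium therefore cannot be told apart in a hypoxia comparison. The labels name no cell line and do not say whether replicates came from separate cultures, so p-values measure the spread between these libraries, which may be technical.

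HIF is a transcription factor made of an oxygen-labile alpha subunit, encoded by HIF1A or EPAS1, and a stable beta subunit, encoded by ARNT. In the presence of oxygen, prolyl hydroxylases of the EGLN family modify the alpha subunit, the VHL protein then recognises it, and a ubiquitin ligase built around VHL marks it for destruction. A separate asparaginyl hydroxylase, encoded by HIF1AN, blocks the binding of transcriptional coactivators. Because the alpha subunits are controlled mainly at the level of protein stability, their transcript levels do not report HIF activity. EGLN1 and EGLN3 are themselves known HIF target genes.

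Inverting the deposited transformation gave 4154346 to 11298841 reads per library. Library medians of the deposited log2 values ran from 6.98 to 8.75 over the 12084 genes tested, so each library was centred on its median before testing. Levels are given as normalised reads, meaning recovered reads divided by median-of-ratios factors. Differences are given on the log2 scale of the centred values, with their standard error (SE), and are called where the Benjamini-Hochberg adjusted p over all 12084 genes is under 0.05. All 7 members listed in the table passed the filter on low values. Their reads per library ran from 23 (VHL) to 4183 (EGLN3), and counting error alone came to 20.9% at the lowest VHL count. The 8 cardiomyocyte markers took 0.0453% to 0.284% of reads in monolayer normoxia, 0.413% to 0.458% in monolayer hypoxia, 0.000829% to 0.0147% in EHT normoxia and 0.00192% to 0.0628% in EHT hypoxia. The 8 fibroblast markers in the table took 3.26% to 6.86% across all 12 libraries. The labelled cell type is thus weakly represented by its defining transcripts, above all in EHT.

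The comparison of hypoxia with normoxia asked how the members differed between the pouch-treated cultures, with their change of medium, and the normoxia cultures. In both culture formats EGLN1, EGLN3 and ARNT rose. In monolayer HIF1AN and EPAS1 fell, and in EHT HIF1A fell. In monolayer 5 of 7 members were called, 3 higher and 2 lower, where 46.5% of all genes tested were called, 27.8% higher and 18.6% lower. In EHT 4 of 7 were called, 3 higher and 1 lower, against 35.5% of all genes, 19.5% higher and 16.0% lower. The median log2 difference of the members was -0.41 in monolayer and 0.24 in EHT, beside 0.07 and 0.03 for all genes tested. The split of calls depended on scaling. In monolayer 3362 genes were higher and 2253 lower after centring, and 535 higher and 2410 lower on the values as deposited. In EHT the counts were 2360 and 1932 after centring, and 858 and 270 as deposited. Centring the unfiltered table gave 4026 higher and 1514 lower in monolayer. Ranges of libraries that do not overlap are given below for single members. The share of all genes with such ranges was not computed, so they are not shown to be particular to the members.

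**Figure D1:**
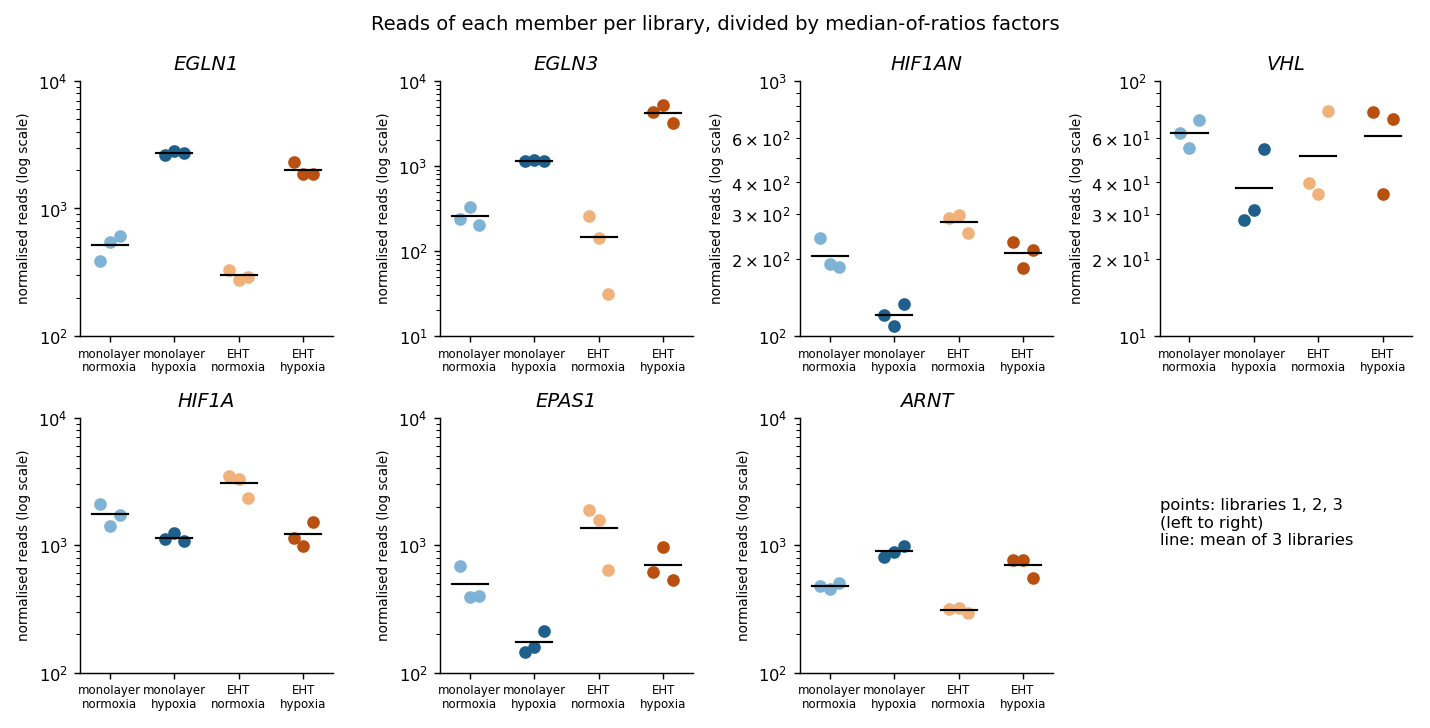
Normalised reads (log axis) of the 7 members in each of the 12 libraries, with a line at the mean of each group of 3. EGLN1 lay between 1864 and 2820 in the 6 hypoxia libraries and between 276 and 610 in the 6 normoxia libraries. VHL overlapped between oxygen conditions in EHT, and in monolayer its ranges were separated narrowly (54.4 in normoxia against 54.3 in hypoxia).

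EGLN1 encodes the prolyl hydroxylase regarded as the main regulator of HIF alpha stability in most cells. Its normalised reads in monolayer were 389, 546 and 610 in normoxia and 2651, 2820 and 2710 in hypoxia. In EHT they were 329, 276 and 291 in normoxia and 2298, 1870 and 1864 in hypoxia. All 6 hypoxia libraries lay above all 6 normoxia libraries. The log2 difference was 2.48 ± 0.17 (SE, n = 3 per group, limma adjusted p = 3.94e-07) in monolayer, a 5.30-fold ratio of mean normalised reads. In EHT it was 2.73 ± 0.17 (SE, n = 3 per group, limma adjusted p = 3.13e-07), a 6.73-fold ratio. By p-value EGLN1 ranked 59 in monolayer and 24 in EHT among the 12084 genes tested.

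EGLN3 encodes a prolyl hydroxylase of the same family that is known for strong induction when oxygen falls. The monolayer libraries held 236, 332 and 202 normalised reads in normoxia and 1149, 1187 and 1129 in hypoxia. In EHT the normoxia libraries held 259, 143 and 31, and the hypoxia libraries 4317, 5202 and 3227. Again no hypoxia library overlapped a normoxia library. Replicate 3 of EHT normoxia, with 37 reads of EGLN3, lay far below the other libraries of its group. The log2 difference was 2.24 ± 0.45 in monolayer (SE, n = 3 per group, limma adjusted p = 0.00141) and 5.06 ± 0.45 in EHT (SE, n = 3 per group, limma adjusted p = 6.64e-06). The latter was the rank 4 increase by size among the 12084 genes. Without EHT normoxia replicate 3 it was 4.35 (limma adjusted p = 6.41e-07). The SE of 0.45 pools groups of unlike spread. The SD of the centred values of EGLN3 was 1.28 in EHT normoxia and 0.30 in EHT hypoxia. In monolayer it was 0.34 in normoxia and 0.045 in hypoxia. The SE thus understates the spread in EHT and overstates it in monolayer, and the interaction given below shares this limit.

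HIF1AN encodes the asparaginyl hydroxylase known as factor inhibiting HIF. Normalised reads in monolayer were 242, 191 and 187 in normoxia and 120, 109 and 134 in hypoxia. In EHT they were 291, 299 and 252 in normoxia and 233, 185 and 216 in hypoxia. Within each culture the hypoxia libraries all lay below the normoxia libraries. The fall in monolayer was called, with a log2 difference of -0.58 ± 0.16 (SE, n = 3 per group, limma adjusted p = 0.0092). On the values as deposited that call was lost (-1.13, limma adjusted p = 0.0726), and likewise without a filter on low values (-0.40, limma adjusted p = 0.111). The difference in EHT, -0.33 ± 0.16, was not called (SE, n = 3 per group, limma adjusted p = 0.12), with a 95% interval from -0.67 to 0.01. In the RefSeq annotation of a later macaque assembly, T2T-MMU8v2.0, 3 long noncoding RNA genes and a transcribed pseudogene overlap the span of HIF1AN. Spans were compared from gene start to gene end, without regard to exons. The sources used here do not say whether counting used strand. Whether reads of these genes were counted with HIF1AN is therefore not known.

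VHL encodes the substrate receptor of the ubiquitin ligase that recognises hydroxylated HIF alpha. It had the fewest reads of the members, 23 to 123 per library. Normalised reads in monolayer were 63, 54 and 70 in normoxia and 29, 31 and 54 in hypoxia. These ranges were separated narrowly (54.4 in normoxia against 54.3 in hypoxia), and on the centred values they overlapped. In EHT they were 40, 36 and 76 in normoxia and 75, 36 and 71 in hypoxia. No comparison called VHL. The log2 difference was -0.41 ± 0.29 in monolayer (SE, n = 3 per group, limma adjusted p = 0.272), with a 95% interval from -1.04 to 0.22. In EHT it was 0.24 ± 0.29 (SE, n = 3 per group, limma adjusted p = 0.57), with an interval from -0.39 to 0.87. Leaving out single libraries moved the EHT value from 0.083 (without EHT hypoxia replicate 1) to 0.50 (without EHT normoxia replicate 3), never with a call. Over the settings tried the monolayer value ran from -0.96 as deposited to -0.21 with quantile normalization. It was -0.75 with median-of-ratios scaling and -0.72 with limma-voom on recovered reads, and no setting called it.

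The partners of VHL in the ligase did not all move one way. Elongin C (TCEB1) and elongin B (TCEB2), the adaptors that tie VHL to the cullin scaffold, fell in EHT, with log2 differences of -0.57 and -0.71 (limma adjusted p = 0.00795 and 0.00942). In monolayer TCEB2 rose by 0.52 (limma adjusted p = 0.0343) and TCEB1 differed by 0.35 (limma adjusted p = 0.0647). Their hypoxia differences themselves differed between cultures, by -0.92 for TCEB1 and -1.23 for TCEB2 (interaction, limma adjusted p = 0.00647 and 0.00503). The scaffold gene CUL2 rose by 0.68 in monolayer (limma adjusted p = 0.002) and differed by -0.15 in EHT (limma adjusted p = 0.458). The RING subunit gene RBX1 fell in both, at -0.40 in monolayer and -0.54 in EHT (limma adjusted p = 0.0319 and 0.01). CUL2 was singled out after its values were seen.

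HIF1A encodes the alpha subunit found in most cell types. In monolayer it had 2122, 1417 and 1725 normalised reads in normoxia and 1113, 1238 and 1076 in hypoxia. In EHT it had 3507, 3316 and 2364 in normoxia and 1136, 991 and 1525 in hypoxia. Within each culture the hypoxia libraries lay below the normoxia libraries. The fall in EHT was called, at -1.26 ± 0.20 (SE, n = 3 per group, limma adjusted p = 0.000507), mean normalised reads being 2.52-fold higher in normoxia. It was not called on the values as deposited (-1.11, limma adjusted p = 0.133). In monolayer the difference of -0.51 ± 0.20 missed the threshold (SE, n = 3 per group, limma adjusted p = 0.0591). Over the settings tried the difference ran from -1.10 with quantile normalization to -0.32 with no filter on low values, and 9 of 23 settings called it. Among these were quantile normalization (limma adjusted p = 0.000362), median-of-ratios scaling (-0.60, limma adjusted p = 0.0248), limma-voom (-0.60, limma adjusted p = 0.021), a stricter filter (-0.57, limma adjusted p = 0.0334) and a fit of the compared groups alone (limma adjusted p = 0.018). It was also called without monolayer normoxia replicate 2 (limma adjusted p = 0.0318) and, through the shared estimate of spread, without replicate 3 of EHT normoxia (0.04) or of EHT hypoxia (0.0247) or both (0.00785).

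EPAS1 encodes HIF-2 alpha, the other main alpha subunit, which is known from endothelium and some mesenchymal and epithelial cells. Normalised reads in monolayer were 691, 394 and 402 in normoxia and 146, 160 and 213 in hypoxia, with no overlap. In EHT they were 1880, 1576 and 639 in normoxia and 611, 965 and 534 in hypoxia, where replicate 3 of normoxia lay within the hypoxia range. EPAS1 fell in monolayer by 1.30 ± 0.35 on the log2 scale (SE, n = 3 per group, limma adjusted p = 0.00923). The EHT difference of -0.79 ± 0.35 was not called (SE, n = 3 per group, limma adjusted p = 0.1). Without EHT normoxia replicate 3 it was -1.26 and was called (limma adjusted p = 0.00441), and without EHT normoxia replicate 1 it was -0.48 (limma adjusted p = 0.355). Quantile normalization also called it (-0.97, limma adjusted p = 0.0459), as did leaving out both EHT libraries numbered 3 (-1.11, limma adjusted p = 0.00401). In monolayer, where EPAS1 fell, the share of reads of the 4 epithelial markers in the table ran from 0.0322% to 0.0494% in normoxia and from 0.00221% to 0.00386% in hypoxia, and 3 of them fell. That of the 6 smooth muscle and pericyte markers ran from 0.181% to 0.368% and from 0.523% to 0.604%, and 5 of them rose. In EHT, where HIF1A fell, the share of the smooth muscle and pericyte markers ran from 0.244% to 0.313% in normoxia and from 0.157% to 0.170% in hypoxia, although 1 of the 6 was called higher and 0 lower. In EHT 2 of the 4 epithelial markers were called higher and 1 lower. Fibroblast markers, 8 tested, had 4 higher and 3 lower in monolayer, and 1 higher and 1 lower in EHT. Endothelial markers, 5 tested, had 0 higher and 1 lower in monolayer, and 1 higher and 0 lower in EHT. Of the 8 cardiomyocyte markers 4 rose in monolayer and 2 in EHT, and of the 6 macrophage markers none was called. The part of these cell types in the members' differences was not tested.

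ARNT encodes the beta subunit, which also pairs with the aryl hydrocarbon receptor and is usually described as unresponsive to oxygen. Its normalised reads in monolayer were 482, 454 and 504 in normoxia and 805, 887 and 987 in hypoxia. In EHT they were 316, 324 and 292 in normoxia and 763, 765 and 551 in hypoxia. Every hypoxia library lay above every normoxia library. In the same RefSeq annotation 1 small nuclear RNA gene overlaps the span of ARNT, and whether its reads were counted with ARNT is not known either. ARNT rose by 0.97 ± 0.14 in monolayer (SE, n = 3 per group, limma adjusted p = 0.000142) and by 1.15 ± 0.14 in EHT (SE, n = 3 per group, limma adjusted p = 7.14e-05). On the values as deposited neither was called, with 0.42 in monolayer (limma adjusted p = 0.559) and 1.30 in EHT (limma adjusted p = 0.0623).

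**Figure D2:**
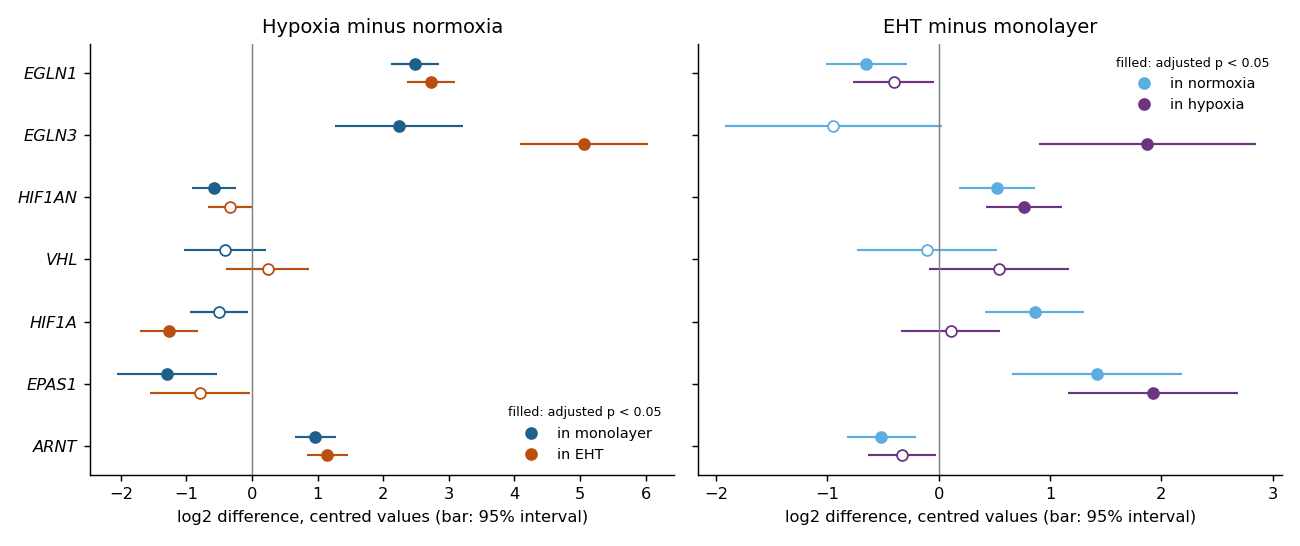
Log2 differences of centred values with 95% intervals for the 7 members, hypoxia minus normoxia on the left and EHT minus monolayer on the right. Filled points have an adjusted p under 0.05, and EGLN3 in EHT (5.06) stands furthest from 0.

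Ratios between members within a library do not depend on how libraries are scaled, and are given as a description with no test. They are ratios of reads with no regard to gene length, so their change between groups carries meaning and their absolute size does not. The ratio of HIF1A reads to ARNT reads was 4.41, 3.12 and 3.42 in monolayer normoxia and 1.38, 1.40 and 1.09 in monolayer hypoxia. In EHT it was 11.1, 10.2 and 8.10 in normoxia and 1.49, 1.30 and 2.77 in hypoxia. The HIF1A to ARNT ratio was thus lower in hypoxia in all libraries of both cultures, by 1.49 on the log2 scale in monolayer and 2.48 in EHT. Leaving out any library kept these between -1.60 and -1.35 in monolayer and between -2.81 and -2.26 in EHT.

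The ratio of EPAS1 to HIF1A reads compares the alpha subunits. It was 0.326, 0.278 and 0.233 in monolayer normoxia and 0.131, 0.129 and 0.198 in monolayer hypoxia, where it was lower in all libraries. In EHT it was 0.536, 0.475 and 0.270 in normoxia and 0.538, 0.974 and 0.350 in hypoxia, and the ranges overlapped. The ratio of EGLN3 to EGLN1 reads was 0.606, 0.607 and 0.331 in monolayer normoxia and 0.434, 0.421 and 0.417 in monolayer hypoxia. In EHT it was 0.789, 0.517 and 0.107 in normoxia and 1.88, 2.78 and 1.73 in hypoxia. EHT hypoxia was the one group in which EGLN3 had more reads than EGLN1. Its log2 difference from EHT normoxia, 2.57, was 1.71 without EHT normoxia replicate 3.

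**Figure D3:**
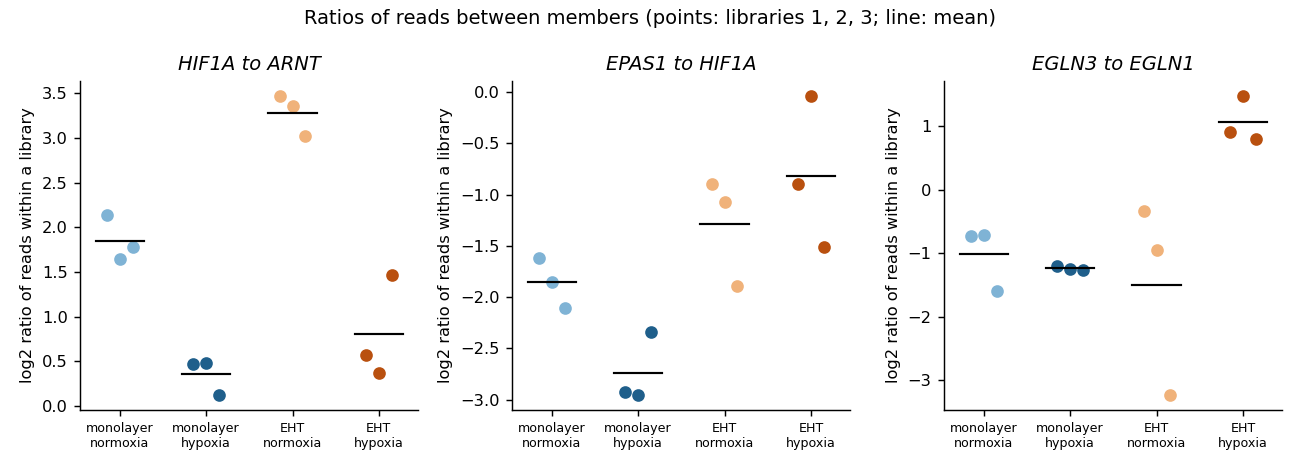
Log2 ratios of reads between members within each of the 12 libraries, by group, with a line at the group mean. The HIF1A to ARNT ratio separated hypoxia from normoxia within each culture, and the EGLN3 to EGLN1 ratio was above 0 in the EHT hypoxia libraries alone.

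The hypoxia differences of the members were compared between culture formats with the interaction term. For this term 24.5% of all genes tested were called. In 10.3% the hypoxia difference was higher in EHT than in monolayer, and in 14.1% it was lower. Of the 7 members, 1 was called. EGLN3 differed by 2.82 ± 0.64 on the log2 scale (SE, n = 3 per group, limma adjusted p = 0.0072), its hypoxia difference being larger in EHT. Without EHT normoxia replicate 3 the interaction was 2.12 (limma adjusted p = 0.00117). For EGLN1 it was 0.24 ± 0.24 (SE, n = 3 per group, limma adjusted p = 0.492), with a 95% interval from -0.27 to 0.76. It ran from 0.092 without monolayer normoxia replicate 3 to 0.45 without monolayer normoxia replicate 1, and was 0.95 on the values as deposited, and no setting called it. HIF1A had an interaction of -0.75 ± 0.29 (SE, n = 3 per group, limma adjusted p = 0.0754). It was called without EHT hypoxia replicate 3 (-0.95, limma adjusted p = 0.0128), without EHT normoxia replicate 3 (-0.94, limma adjusted p = 0.0294) and without both (-1.13, limma adjusted p = 0.00166), and was -0.05 on the values as deposited (limma adjusted p = 0.976). For EPAS1, ARNT, HIF1AN and VHL the adjusted p ran from 0.281 to 0.55. On the values as deposited 1147 genes were higher and 102 lower for the interaction, against 1248 and 1708 after centring.

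The comparison of EHT with monolayer asked how culture format bears on the same genes. In normoxia both alpha subunit genes and HIF1AN were higher in EHT, and EGLN1 and ARNT were lower. Of 7 members 5 were called, 3 higher and 2 lower, where 41.2% of all genes were called, 22.8% higher and 18.5% lower. EPAS1 differed by 1.42 ± 0.35 (SE, n = 3 per group, limma adjusted p = 0.00654) and HIF1A by 0.86 ± 0.20 (SE, n = 3 per group, limma adjusted p = 0.00503). The ranges of EPAS1 overlapped, with 639 normalised reads in EHT normoxia replicate 3 and 691 in monolayer normoxia replicate 1. HIF1AN differed by 0.52 ± 0.16 (SE, n = 3 per group, limma adjusted p = 0.0185). EGLN1 was lower by -0.65 ± 0.17 (SE, n = 3 per group, limma adjusted p = 0.008) and ARNT by -0.52 ± 0.14 (SE, n = 3 per group, limma adjusted p = 0.0115). EGLN3, at -0.95 ± 0.45, was not called (SE, n = 3 per group, limma adjusted p = 0.11), and without EHT normoxia replicate 3 it stood at -0.24 (limma adjusted p = 0.483). It was called without EHT normoxia replicate 1 (-1.50, limma adjusted p = 0.0121), on the values as deposited (-1.68, limma adjusted p = 0.00262) and with limma-voom on recovered reads (-1.50, limma adjusted p = 0.0245).

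Calls of members in this comparison depended on scaling. On the values as deposited EGLN3 gained a call, as above, while EPAS1 stood at 0.69 (limma adjusted p = 0.281), HIF1A at 0.13 (limma adjusted p = 0.865) and HIF1AN at -0.22 (limma adjusted p = 0.765), none of them called. The call of HIF1AN was also lost when replicate 2 or replicate 3 of monolayer normoxia was left out, or replicate 1 or replicate 2 of EHT normoxia (limma adjusted p = 0.0603 to 0.067), and with median-of-ratios scaling (limma adjusted p = 0.0504). With no filter on low values the calls of EGLN1 (-0.44, limma adjusted p = 0.0675) and ARNT (-0.31, limma adjusted p = 0.119) were lost. Over all genes the calls were 2750 higher and 2234 lower after centring, 325 and 3099 as deposited, 2259 and 2885 with median-of-ratios scaling, and 2554 and 3125 with limma-voom.

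After hypoxia EPAS1, EGLN3 and HIF1AN were higher in EHT than in monolayer, and no member was called lower. These 3 of 7 compare with 38.1% of all genes called, 18.4% higher and 19.7% lower. EPAS1 differed by 1.93 ± 0.35 (SE, n = 3 per group, limma adjusted p = 0.00119), a 4.06-fold ratio of mean normalised reads. EGLN3 differed by 1.87 ± 0.45 (SE, n = 3 per group, limma adjusted p = 0.00614) and HIF1AN by 0.77 ± 0.16 (SE, n = 3 per group, limma adjusted p = 0.00239). On the values as deposited HIF1AN stood at 0.73 and was not called (limma adjusted p = 0.382). HIF1A, which was higher in EHT in normoxia, differed by 0.11 ± 0.20 here (SE, n = 3 per group, limma adjusted p = 0.707), with a 95% interval from -0.33 to 0.55, and from -0.088 to 0.26 when single libraries were left out. EGLN1 at -0.40 ± 0.17 was not called (SE, n = 3 per group, limma adjusted p = 0.0729), although its ranges did not overlap, and was called at -0.45 with median-of-ratios scaling (limma adjusted p = 0.0425) and without replicate 1 or replicate 3 of monolayer normoxia (limma adjusted p = 0.025 and 0.0482).

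EPAS1 is expressed by endothelium, so its levels are set beside endothelial markers, of which 7 are in the table and each had a read in every group. Together they took 0.0201% to 0.0421% of reads in monolayer normoxia and 0.0034% to 0.00637% in EHT normoxia. In hypoxia they took 0.019% to 0.023% in monolayer and 0.00167% to 0.01% in EHT. Their share was lower in EHT in both oxygen conditions, and EPAS1 was higher in both. Of the 5 endothelial markers tested, 1 was higher and 2 were lower in EHT in normoxia. In hypoxia 2 were higher and 1 was lower. The 8 fibroblast markers took 3.26% to 6.86% of reads in monolayer normoxia and 5.06% to 6.25% in EHT normoxia, and 3 were called higher in EHT and 1 lower. In hypoxia they took 4.28% to 4.80% in monolayer and 5.02% to 6.73% in EHT, and 4 were called higher in EHT and 1 lower. The 4 epithelial markers took 0.000751% to 0.00111% of reads in EHT normoxia and 0.000996% to 0.00217% in EHT hypoxia, against the monolayer shares given above, and 3 were lower in EHT in normoxia and 2 in hypoxia. Of the 6 smooth muscle and pericyte markers 2 were higher and 2 lower in EHT in normoxia, and 0 were higher and 5 lower in hypoxia. The 8 cardiomyocyte markers were lower in EHT in 7 cases in either oxygen condition. The part of cell composition in the differences between formats was not tested either, and in bulk samples fewer cells of a type and less RNA per cell cannot be told apart.

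The order of the 4 groups differed between members. For EGLN1 and for ARNT the order by mean was monolayer hypoxia, EHT hypoxia, monolayer normoxia and EHT normoxia, and no neighbouring groups overlapped. For EGLN3 EHT hypoxia came first (mean 4249 ± 989, SD, n = 3) and monolayer hypoxia next (1155 ± 29.2), while the normoxia groups overlapped. For HIF1A EHT normoxia came first (3062 ± 612, SD, n = 3), then monolayer normoxia (1755 ± 353), and the remaining neighbours overlapped. EPAS1 was lowest in monolayer hypoxia (173 ± 35.2, SD, n = 3), apart from all other groups, and its other neighbours overlapped. HIF1AN was highest in EHT normoxia (281 ± 24.7, SD, n = 3) and lowest in monolayer hypoxia (121 ± 12.3), with overlap between EHT hypoxia and monolayer normoxia. All neighbouring groups overlapped for VHL. How often such orders and separations occur over all genes was not computed.

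Genes known as HIF targets, outside the members, were set beside them to show how they differed in the same comparisons. Of 46 symbols listed, 39 are in the table and 37 were tested. In monolayer 34 were higher after hypoxia and 1 lower, with a median log2 difference of 2.46. In EHT 35 were higher and 0 lower, with a median of 2.92. Over all genes tested 27.8% were higher and 18.6% lower in monolayer, and 19.5% and 16.0% in EHT. The hexokinase HK2 rose by 3.18 in monolayer and 4.30 in EHT (limma adjusted p = 1.5e-07 and 3.9e-08). In monolayer the nuclear receptor RORA rose by 4.40 (limma adjusted p = 7e-08) and the hexokinase HK1 by 2.53 (limma adjusted p = 1.6e-07). In EHT the glucose transporter SLC2A1 rose by 3.88 (limma adjusted p = 4.8e-08) and the lipid droplet gene HILPDA by 5.0 (limma adjusted p = 6.1e-08). The target that was lower in monolayer was the ephrin gene EFNA1, at -1.55 (limma adjusted p = 0.00027). EGLN1 and EGLN3 thus lay among many rising targets, and in EHT EGLN3 was above the list's median while EGLN1 was near it.

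**Figure D4:**
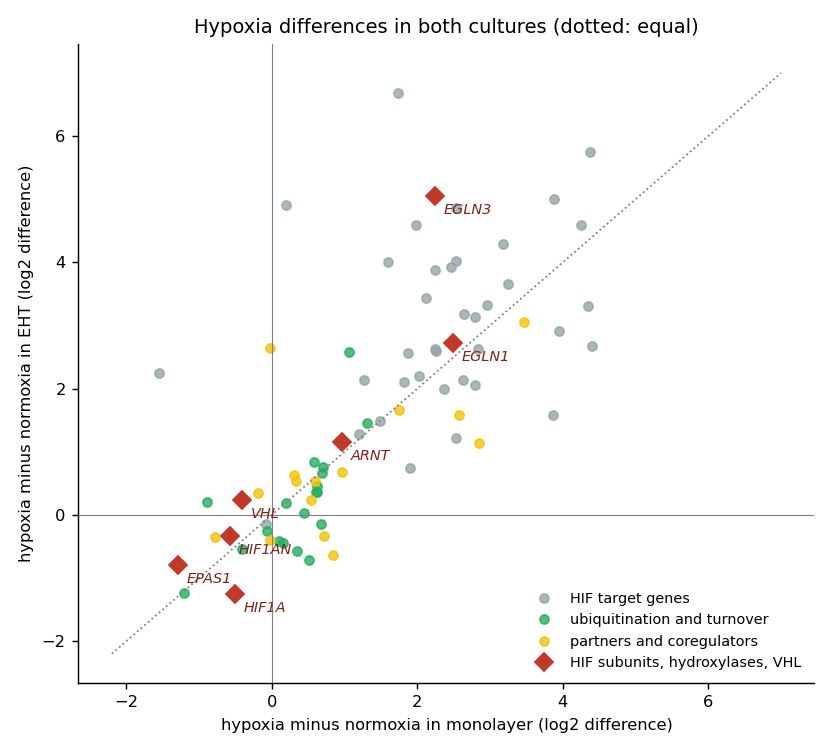
Log2 hypoxia differences in monolayer (horizontal) and EHT (vertical) for the 7 members and for 3 lists of pathway genes, with a dotted line of equality. HIF targets lie mostly in the upper right, EGLN3 lies above the line (2.24 and 5.06), and HIF1A, EPAS1 and HIF1AN lie below 0 on both axes.

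The list of genes that act in HIF ubiquitination and turnover, 19 tested, had 11 higher and 3 lower in monolayer (median 0.52), and 7 higher and 5 lower in EHT (median 0.18). The shares of all genes tested were 27.8% higher and 18.6% lower in monolayer, and 19.5% and 16.0% in EHT. WSB1, an adaptor of another ubiquitin ligase that has been linked to VHL, rose by 1.07 in monolayer and 2.58 in EHT (limma adjusted p = 8.33e-05 and 1.76e-07). SIAH2, a ubiquitin ligase that acts on EGLN proteins, rose by 1.31 and 1.45 (limma adjusted p = 9.8e-05 and 8.4e-05). The ubiquitin-conjugating enzyme UBE2D3 rose by 0.69 and 0.67 (limma adjusted p = 0.00019 and 0.00039), and its relative UBE2D1 fell in both, at -1.21 and -1.23 (limma adjusted p = 0.0018 and 0.0024). USP20, a deubiquitinase reported to act on HIF1A, fell by 0.89 in monolayer (limma adjusted p = 0.000312) and differed by 0.20 in EHT (limma adjusted p = 0.311).

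Among HIF partners and coregulators, 15 tested, 9 were higher and 1 lower in monolayer (median 0.60), and 8 were higher and 0 lower in EHT (median 0.54). Beside these counts, 27.8% of all genes were higher and 18.6% lower in monolayer, and 19.5% and 16.0% in EHT. The list was drawn up by symbol and was not checked for genes that are also HIF targets. Its counts may include such genes and are not a measure of HIF cofactors alone. MXI1, an antagonist of MYC, rose by 3.47 in monolayer and 3.06 in EHT (limma adjusted p = 3.8e-07 and 1.8e-06). CDK8, a Mediator kinase, rose by 1.74 and 1.67 (limma adjusted p = 5.3e-06 and 1.5e-05), and the repressor BHLHE41 by 2.57 and 1.57 (limma adjusted p = 8.4e-06 and 0.00055). RUVBL2 was the gene that fell in monolayer, by 0.78 (limma adjusted p = 0.00059). HIF3A, another alpha subunit with inhibitory isoforms, was singled out after its values were seen. Its normalised reads ran from 132 to 276 in monolayer normoxia, 148 to 196 in monolayer hypoxia, 1.68 to 20.1 in EHT normoxia and 24.3 to 364 in EHT hypoxia. It differed by -0.03 ± 0.66 in monolayer (SE, n = 3 per group, limma adjusted p = 0.974) and rose by 2.65 ± 0.66 in EHT (SE, n = 3 per group, limma adjusted p = 0.00758), and the interaction was not called (2.68, limma adjusted p = 0.0527).

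For each member the 3 genes with the most similar profile were found by Pearson's r of centred values over the 12 libraries, among 10474 genes, as a description. The 12 libraries fall into 4 groups, so r mainly reflects the group means. EGLN1 was closest to the glycolytic isomerase GPI (r = 0.994), the mitochondrial protein gene FAM162A (0.993) and the carrier gene SLC25A36 (0.991). EGLN3 was closest to NFATC2IP (0.995), the liver-type glycogen phosphorylase PYGL (0.975) and AFMID (0.965). ARNT was closest to the elongation factor gene MLLT3 (0.990), the kinase gene CSNK2A3 (0.984) and the histone demethylase KDM3A (0.979). HIF1A was closest to CKAP4 (0.977), TTC13 (0.975) and WBSCR22 (0.961). The profiles nearest to EPAS1 were TCTN3 (0.938), NOP16 (0.927) and ZFYVE26 (0.920), and those nearest to HIF1AN were ZFYVE26 (0.970), CDC16 (0.968) and CD46 (0.966). VHL had the weakest matches, KITLG (0.872), C5orf42 (0.863) and SLC25A40 (0.824).

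**Figure D5:**
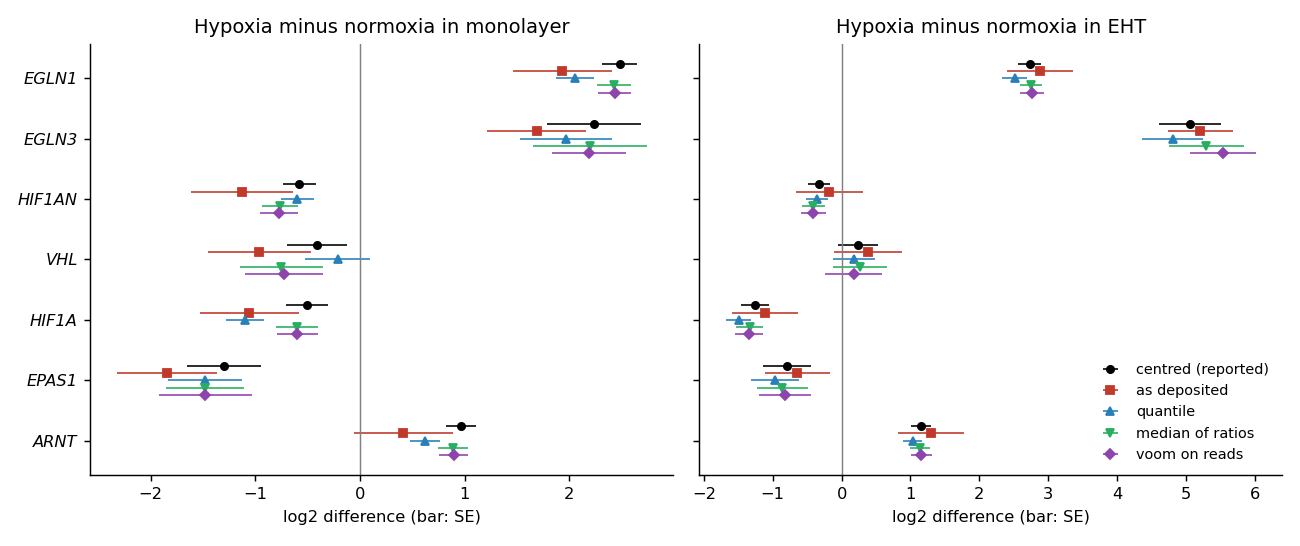
Log2 hypoxia differences with SE for the 7 members under 5 ways of scaling or testing, in monolayer (left) and EHT (right). EGLN1 and EGLN3 were far above 0 under each of them, and ARNT in monolayer ranged from 0.42 as deposited to 0.97 after centring.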

How the data were processed

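RNA from 12 libraries, 3 in each of 4 groups, was sequenced on the Ion Proton per the labels' protocols. HISAT2, featureCounts and DESeq2 are named in the submitters' processing notes. The sources used here give no versions, genome build, annotation or use of strand. The deposited table holds variance-stabilised log2 values made by the authors, 1 column per library. Its inversion returned whole reads within 0.01 for 100% of values, and genes are identified by symbol alone.

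Tests covered the 12084 genes whose mean over libraries exceeded the table's lowest value (3.00) by 1 log2 unit or more. Each library was centred on its median because, without centring, library offsets entered the spread of every gene. Group means of all 12 libraries were then modelled in limma 3.58.1 (R 4.3.3) using its moderated, trended variances, and p-values were adjusted by Benjamini-Hochberg over all genes of a comparison. Normalised reads are recovered reads over median-of-ratios factors. Low values are flattened by the transformation, so their log2 differences understate folds.

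On simulated counts with a dispersion of 0.05, for hypoxia against normoxia in monolayer over 12084 genes, centring led to calls for 45.3% of the genes changed 2-fold, 87.7% at 4-fold and 97.2% at 8-fold. Without centring the shares were 3.12%, 49.2% and 98.6%. False calls made up 4.32% of calls with centring and 0% without. The simulation changed 64 genes 2-fold, 65 genes 4-fold and 71 genes 8-fold, in random directions and in monolayer hypoxia alone. So few changes hardly move a library median. The simulation therefore does not test centring where many genes change, as was called in these data.

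The members and the gene lists were chosen with earlier results of these data known. Named genes are all members, up to 3 genes per pathway list and direction with the smallest p in each hypoxia comparison, and the 3 most correlated genes per member among those at least 2 units above the lowest value; 1 gene that this rule selects is not reported here, and CUL2 and HIF3A were added after their values were seen. Alternatives covered scaling, limma-voom on recovered reads, filters, variance models, the replicate number, the groups fitted and the libraries used. Figures were drawn with matplotlib 3.10.9.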

Additional observations from a re-analysis of the deposited data

Results flagged for a closer look

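The rise of EGLN3 after hypoxia differed between culture formats by the interaction test, 2.82 on the log2 scale (limma adjusted p = 0.0072). It rose in both, by 5.06 in EHT and 2.24 in monolayer. Each group holds 3 libraries, too few for a test of single outlying libraries.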

How the results depend on the processing

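Of 798 recomputed member differences, 752 kept their direction and side of the threshold, 15 lost a call, 23 gained one and 8 changed sign. The rises of EGLN1 and EGLN3 in both cultures and of EPAS1 and EGLN3 in EHT over monolayer in hypoxia, the fall of EPAS1 in monolayer and the EGLN3 interaction kept their calls in all settings run. As deposited, without centring, 3 members were called for hypoxia in monolayer, 2 in EHT and 3 for EHT against monolayer in normoxia, and 2945, 1128, 1553 and 1249 genes for hypoxia in monolayer, hypoxia in EHT, EHT against monolayer in hypoxia and the interaction. With no filter 7582 genes and 3 members were called for EHT against monolayer in normoxia. Leaving out 1 library gave 1 to 2 members called for the interaction, and leaving out both EHT libraries numbered 3 gave 2 members; the second was HIF1A. Sign changes were HIF1AN as deposited (-0.22) and VHL with quantile normalization (0.15), no filter (0.10) or without EHT normoxia replicate 1 or 2 (0.027, 0.021; -0.36 to 0.027 over libraries left out), all for EHT against monolayer in normoxia; HIF1A for the same in hypoxia without EHT hypoxia replicate 3 or both numbered 3 (-0.088 each; -0.088 to 0.26 over libraries left out); and ARNT for the interaction with no filter (-0.0047). The cause was not tested. The replicate number gave correlations of 0.0014 to 0.13 (monolayer) and 0.04 to 0.33 (EHT) between same-numbered hypoxia and normoxia libraries and was not used as a pairing. Libraries numbered 3 nevertheless matched each other best in each comparison of groups. Those numbered 2 did so for hypoxia in EHT (0.33) and for EHT against monolayer in normoxia (0.23). Whether libraries of 1 number share a batch is not known. A replicate block left 5, 4, 5, 3 and 1 members called in the 5 comparisons, as without it. Depth limits VHL most, at 23 to 123 reads.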

Other observations

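Other enzymes that use oxygen, iron and 2-oxoglutarate, as the HIF hydroxylases do, were called in both directions after hypoxia, as were genes at large. Of 32 tested, 15 were higher and 6 lower in monolayer (median log2 difference 0.48), and 14 were higher and 3 lower in EHT (median 0.30). Among all genes tested 27.8% were higher and 18.6% lower in monolayer, and 19.5% and 16.0% in EHT. The RNA demethylase ALKBH5 rose by 1.78 in monolayer and 1.43 in EHT (limma adjusted p = 2.7e-06 and 2.2e-05), and the histone demethylase KDM7A by 1.84 and 1.73 (limma adjusted p = 9.9e-06 and 3e-05). JMJD6 rose by 1.88 in monolayer (limma adjusted p = 4.3e-06), and the collagen prolyl hydroxylase P3H2 by 1.72 in EHT (limma adjusted p = 3.7e-05). MINA, a ribosomal oxygenase, fell in both (-1.26 and -1.28, limma adjusted p = 0.00089 and 0.0012), and so did PHF2 (-0.89 and -0.47, limma adjusted p = 0.00099 and 0.047). TET3 fell by 1.08 in monolayer (limma adjusted p = 0.0022) and PHYH by 0.79 in EHT (limma adjusted p = 0.0052).

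Genes that supply or remove the cosubstrates of the hydroxylases, 20 tested, had 7 higher and 1 lower in monolayer (median 0.39) and 3 higher and 4 lower in EHT (median 0.01). The isocitrate dehydrogenase subunit IDH3G rose by 1.34 and 1.03 (limma adjusted p = 4.5e-05 and 0.00056) and the ferritin light chain FTL by 1.16 and 1.01 (limma adjusted p = 0.00048 and 0.002). In monolayer NCOA4, which directs ferritin to autophagy, rose by 1.25 (limma adjusted p = 1e-05), and the iron exporter SLC40A1 fell by 0.61 (limma adjusted p = 0.029). In EHT IDH2 rose by 0.62 (limma adjusted p = 0.0053). There the fumarase gene FH fell by 1.40 (limma adjusted p = 2.6e-05), IDH3A by 1.17 (limma adjusted p = 8.9e-05) and the transaminase gene GOT2 by 1.89 (limma adjusted p = 0.00013). Genes of HIF alpha production, 15 tested, had 8 higher and 1 lower in monolayer (median 0.44) and 4 higher and 2 lower in EHT (median 0.19). SP1 rose by 1.10 and 1.08 (limma adjusted p = 9.3e-05 and 0.00018). STAT3 rose by 1.72 in monolayer (limma adjusted p = 4.4e-06) and EIF4EBP1 by 0.99 in EHT (limma adjusted p = 0.014). MTOR fell in both (-0.76 and -1.62, limma adjusted p = 0.016 and 0.00019), and AKT1 fell by 1.15 in EHT (limma adjusted p = 2.2e-05). Over all genes tested the median difference was 0.07 in monolayer and 0.03 in EHT. Of these genes 27.8% were higher and 18.6% lower in monolayer, and 19.5% and 16.0% in EHT.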
